A study of Sus scrofa with 6 samples.

Results

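The contractile apparatus of smooth muscle was followed here through 37 listed genes for actins, myosin light chains, thin-filament proteins, regulators of myosin, desmin-type filaments, dense bodies and focal adhesions. A gene was included when the symbol column of the gene table equalled one of the listed symbols. This gave 30 symbols and 31 entries of the 22861 genes in the table, because MYL6 is carried by 2 entries. The other 7 symbols, MYH11, FLNA, PPP1R14A, LMOD1, ITGA7, TPM1 and PDLIM7, were not found in that column. TPM1 was found by its gene identifier and is described outside the set, and the remaining 6 were not analysed here. All 31 entries passed the filter on low counts.

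The tissue was abdominal aorta of Wisconsin Miniature Swine (WMS), a small breed used as a model of human arterial disease. One group came from WMS FH animals, which carry familial hypercholesterolaemia, with an atherosclerotic lesion, and the other from WMS normal animals with lesion-free aorta. Each group's 11 animals gave RNA to 3 pools, called here lesion replicates 1 to 3 and lesion-free replicates 4 to 6. Genotype and lesion were always found together, so they cannot be told apart, and the labels state no allele, age, sex or diet. They do not say which animals entered each pool either, so the p-values measure the spread between pools.

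Smooth muscle shortens when myosin pulls on actin filaments. Calcium-bound calmodulin activates myosin light chain kinase, which phosphorylates the regulatory light chain, and a myosin phosphatase reverses the step. Thin-filament proteins such as calponin and caldesmon tune the pull, and dense bodies, desmin filaments and integrin adhesions carry the force to the cell's edge. In the aorta these proteins are abundant in the medial layer, and their levels are widely used to describe how contractile a smooth muscle cell is.

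The pools held between 4650176 counts (lesion replicate 1) and 11442433 counts (lesion replicate 3). ACTA2 and TAGLN, markers of the artery's muscle, were at 8586 CPM (counts scaled to a common library size) or more in every pool. The listed striated muscle markers that had an entry were close to absent. Of 13 skeletal muscle symbols 6 had an entry, and these summed to at most 4.83 CPM in any pool, with MYH7, TNNC2 and MYBPC1 at 0. Those of heart muscle summed to at most 1.34 CPM, with TNNT2, MYL7 and NPPA at 0. ACTA1, a skeletal muscle actin outside these lists, ran from 22.7 to 120.0 CPM. Pools stood apart within both groups. Lesion-free replicate 4 lay more than 2-fold (1 on the log2 scale) under the mean of the other two lesion-free pools for 7 of 30 contractile entries, with the second MYL6 entry left out, against 17.4% of all genes tested. Lesion replicate 1, the shallowest pool, was below the mean of the other lesion pools for 23 of the 30.

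The contractile genes together took a smaller share of the RNA counts in every lesion pool than in any lesion-free pool. They made up 7.61%, 10.3% and 9.06% of counts in lesion replicates 1 to 3, and 13.8%, 13.9% and 14.5% in lesion-free replicates 4 to 6. The means were 8.99% ± 1.35 and 14.1% ± 0.379 (SD, n = 3 pools each), a ratio of 1.57. On scaled CPM the sums were 85091 ± 14719 in lesion and 149575 ± 10071 in lesion-free pools, a ratio of 1.76. The most abundant genes, ACTA2 and TAGLN (lesion-free means 24100 and 23052 CPM), weigh most in these sums. The median entry, as log2 CPM minus the lesion-free mean, was at -0.89, -0.35 and -0.48 in lesion replicates 1 to 3. It was at -0.3, 0.06 and 0.16 in lesion-free replicates 4 to 6. By that measure lesion-free replicate 4 lay close to lesion replicate 2. In bulk tissue, fewer smooth muscle cells and less of these RNAs per cell cannot be told apart.

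**Figure D1:**
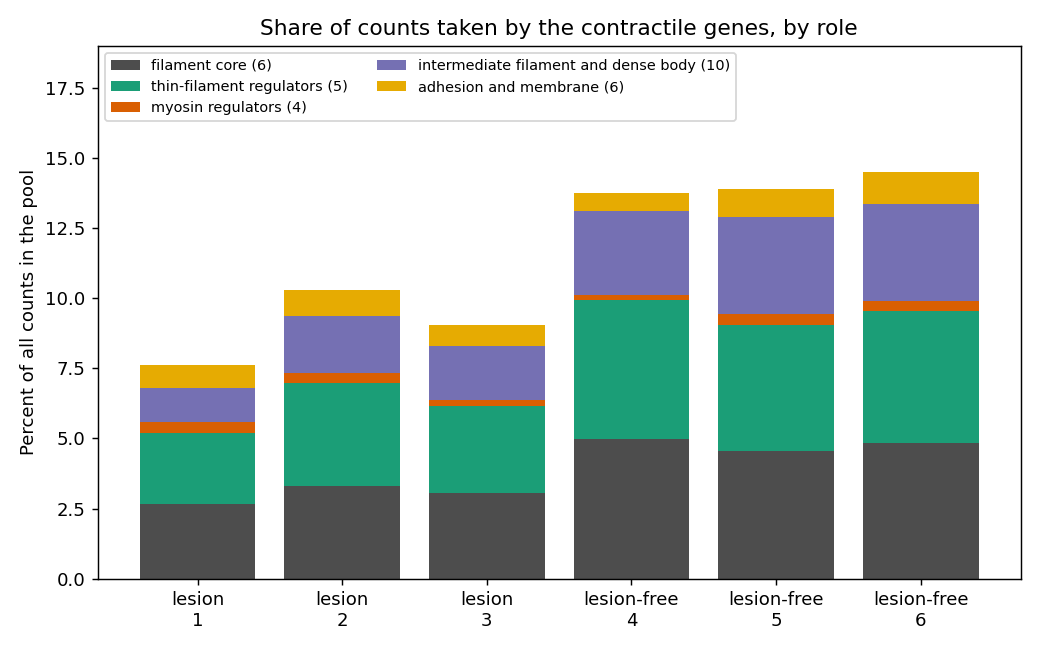
Percent of all counts in each pool taken by the contractile genes, stacked by role, with the number of entries per role in the key. The lesion pools reach 7.61% to 10.3% and the lesion-free pools 13.8% to 14.5%.

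Macrophage markers rose in the lesion pools. The 11 macrophage entries summed to 3218, 1449 and 3018 CPM in the lesion pools and 362, 242 and 192 CPM in the lesion-free pools. Of the 10 tested 9 rose, against 113 of all 11673 genes. Among these was LYZ, at 1100, 201 and 947 CPM in the lesion pools. LYZ no longer passed when any pool but lesion replicate 2 was left out (limma adjusted p up to 0.493). Fibroblast markers summed to 7093 to 7814 CPM against 5378 to 6751 CPM, with 0 of 7 called. COL1A2 made up most of that sum. Of the 7, 4 were above 0 and 3 below, DCN (-0.59), PI16 (-0.58) and DPT (-0.21). PDGFRA (2.96, or 0.60 without lesion-free replicate 4), LUM (0.89) and COL1A2 (0.51) were higher without overlap, and DCN was lower without overlap. Over all genes 10.5% were higher and 8.97% lower without overlap. Endothelial markers summed to 383 to 464 CPM against 245 to 301 CPM, with 0 of 5 called. All 5 were above 0, and PECAM1 (0.77) and TEK (0.87) were higher without overlap, against 10.5% of all genes. The 8 pericyte entries summed to 2398 to 3469 CPM against 3458 to 5263 CPM, with 6 of 8 below 0 and 0 called. Markers of phenotypically modulated smooth muscle summed to 12894 to 16975 CPM against 8606 to 13225 CPM. MGP (0.12, with overlap) and FN1 (1.23) made up most of that sum, and LUM is also among the fibroblast markers. Of the 8 genes, 8 were above 0, with a median of 1.70, and 6 were higher without overlap, against 10.5% of all genes. SPP1 (7.67) and LGALS3 (4.34) were the 2 that rose, and which cells their RNA came from was not tested. SPP1 no longer passed when lesion-free replicate 4 or 6 was left out (limma adjusted p up to 0.162). The part of these cells in the results that follow was not tested. The other smooth muscle lineage genes outside the set, KCNMB1, CASQ2, NEXN and PLN, summed to 648, 678 and 531 CPM in lesion pools and 460, 679 and 731 CPM in lesion-free pools. Of these 4 genes 0 were called, and the groups overlapped in their sum, most of which was NEXN. KCNMB1, a potassium channel subunit, was at 77.8, 75.7 and 75.9 CPM in lesion and 106, 125 and 137 CPM in lesion-free pools, without overlap (-0.67, limma adjusted p = 0.338), and the median of the 4 was -0.29.

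By the test across all 11673 genes (limma, adjusted p under 0.05), 3 of the 31 entries fell in lesion pools, ACTA1, CNN1 and DES, and 0 rose. Of all genes tested, 0.0771% fell. The fitted log2 difference was below 0 for 24 entries, an uncertain second MYL6 entry among them, and above 0 for 7. Of all genes 50.1% were below 0, and the median of the entries was -0.67 beside 0.00 over all genes. In 13 entries the highest lesion pool was under the lowest lesion-free pool, against 8.97% of all genes. In 0 entries were the groups separated the other way, against 10.5% of all genes. At an unadjusted p under 0.05 the count was 14 lower and 0 higher, beside 4.15% and 6.49% of all genes.

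These counts moved with single pools. Without lesion-free replicate 4, 4 entries fell (FLNC was added) against 0.173% of genes, 29 were below 0 against 53.3%, 19 were lower without overlap against 15.9%, and the median was -0.75. Without lesion replicate 1 the median was -0.37, beside 0.06 over all genes, and 1 entry, ACTA1, was called. The same single entry was called without lesion-free replicate 5. Without lesion-free replicate 6 the count was 0. Over all genes the number called lower was 9 with all pools, and 5, 4 and 4 in these fits, in that order.

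**Figure D2:**
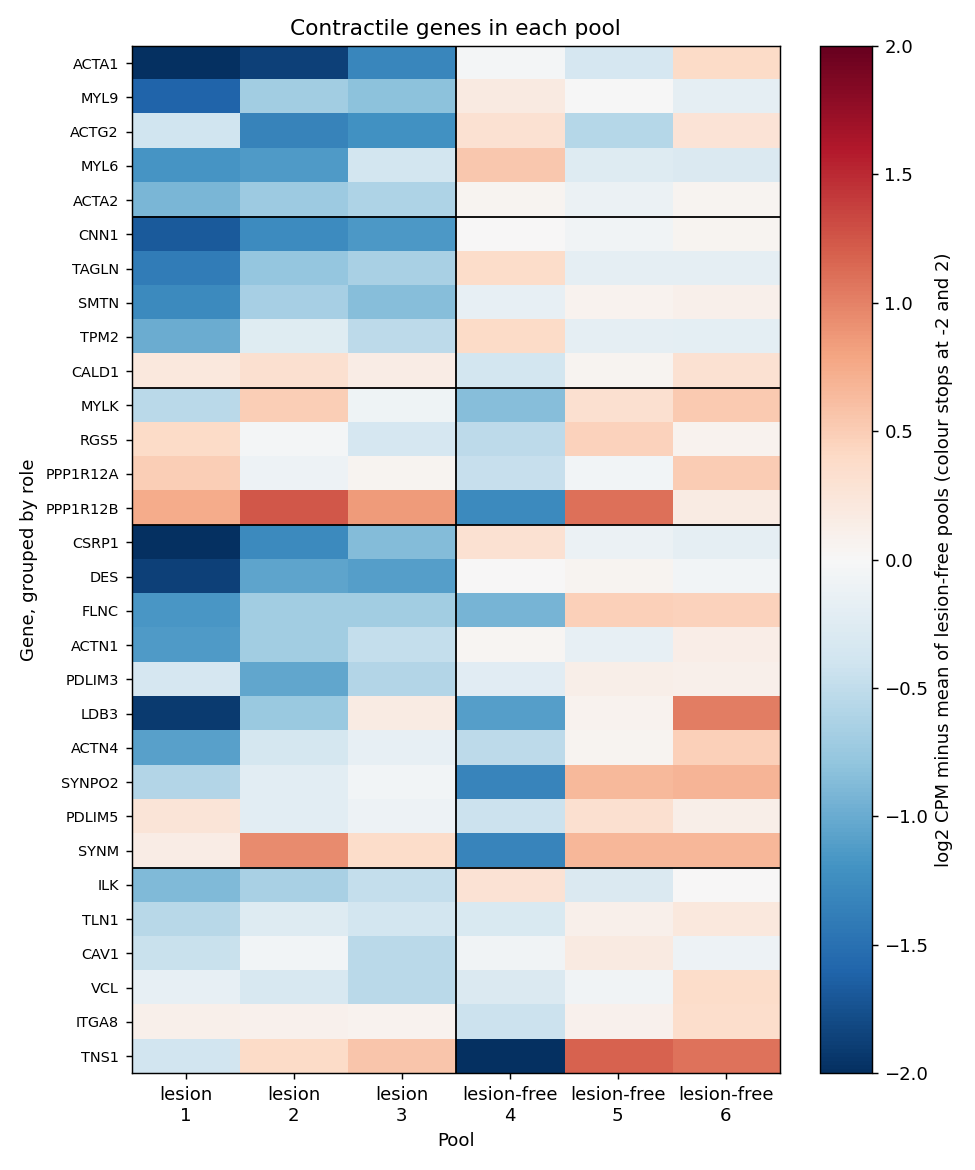
Each row is a contractile gene, grouped by role from filament core (top) to adhesion and membrane (bottom), and each column a pool. Colour gives log2 CPM minus the mean of the lesion-free pools, with colours stopping at -2 and 2. ACTA1, CNN1 and DES are blue in all 3 lesion pools, and lesion-free replicate 4 departs from its group in TNS1, SYNM and SYNPO2.

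Among the filament core genes, 1 of 6 entries fell, 6 were below 0 and 4 were lower without overlap. Over all genes the shares were 0.0771%, 50.1% and 8.97%. The median log2 difference of the 6 entries was -0.93, with the uncertain second MYL6 entry, described below, counted. Their share of counts was 3.01% ± 0.325 in lesion and 4.8% ± 0.214 in lesion-free pools (SD, n = 3 each). ACTA1, the alpha-actin of skeletal muscle, stood at 22.7, 25.4 and 37.6 CPM in the lesion pools and 89.5, 73.5 and 120.0 CPM in the lesion-free pools. Every lesion pool was under every lesion-free pool. It was 3.22-fold lower (log2 difference -1.69, SE 0.32, limma adjusted p = 0.0165). The call was lost without lesion replicate 2 (limma adjusted p = 0.0564) or lesion-free replicate 6 (0.0952).

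ACTA2, the main actin of vascular smooth muscle, was at 12772, 14477 and 15670 CPM in lesion pools and 25011, 22293 and 24997 CPM in lesion-free pools. The groups did not overlap, yet the difference of -0.76 (SE 0.28) did not pass across all genes (limma adjusted p = 0.312). MYL9, the regulatory light chain that the kinase phosphorylates, was at 4690, 8795 and 8114 CPM against 16193, 14283 and 12599 CPM. The pools again did not overlap, with a log2 difference of -1.05 (SE 0.31, limma adjusted p = 0.179). ACTG2, the actin typical of visceral muscle, ranged over 1265 to 2431 CPM in lesion and 2144 to 3926 CPM in lesion-free pools, which overlapped (-0.97, limma adjusted p = 0.267).

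MYL6, the essential light chain, was carried mainly by an entry at 3938, 4057 and 6925 CPM in lesion pools and 12991, 7445 and 7285 CPM in lesion-free pools. These did not overlap (-0.89, limma adjusted p = 0.318), and lesion-free replicate 4 was the highest pool. The second MYL6 entry held 12354 counts in lesion replicate 2, 2115 in lesion-free replicate 5 and 123 in lesion-free replicate 6, and 0 in the other pools. Reads shared between near-identical copies could be divided between the entries, so this entry is uncertain and its fold is not given.

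**Figure D3:**
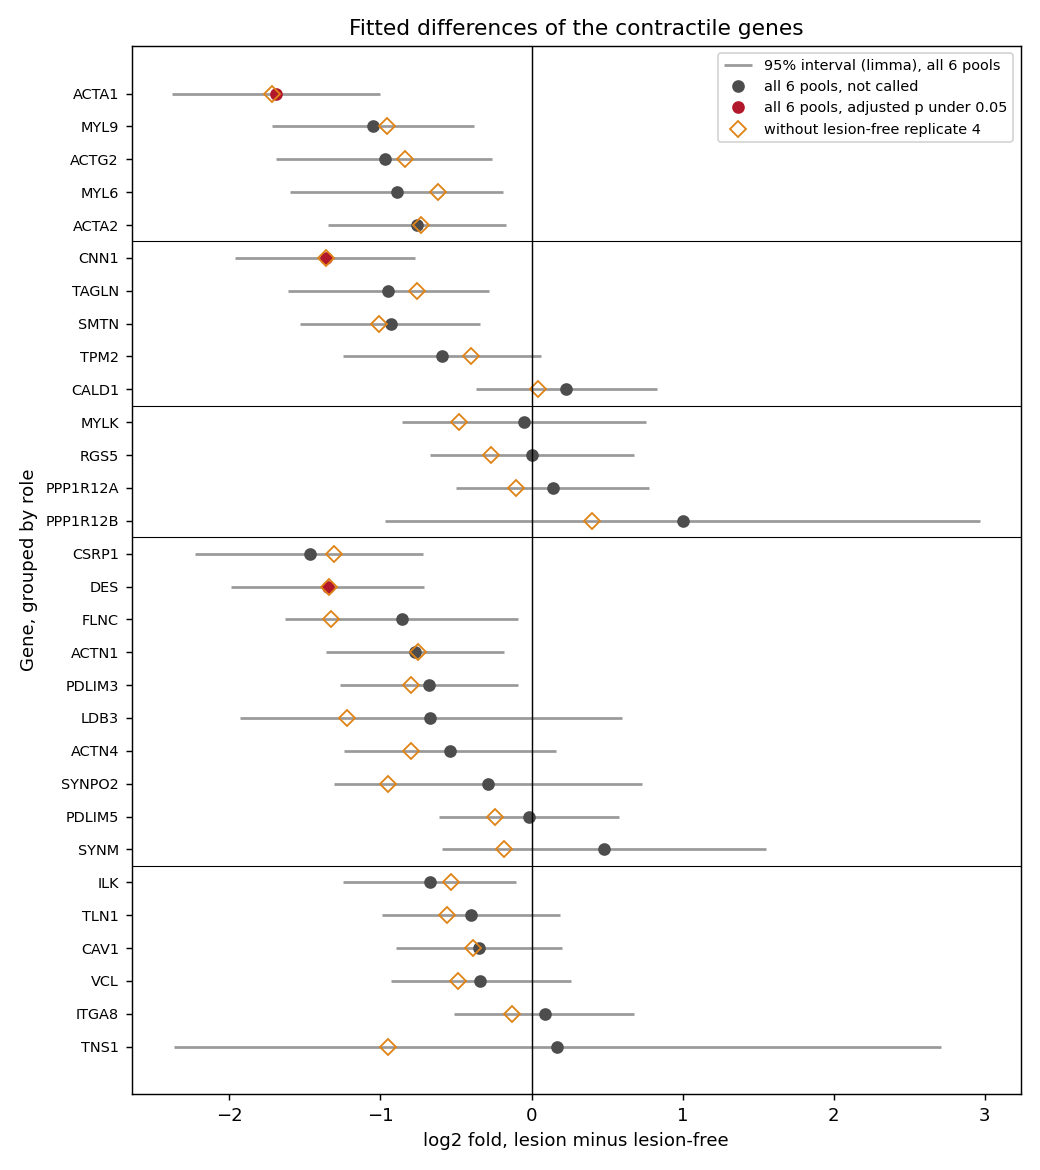
Fitted log2 differences, lesion minus lesion-free, for 30 contractile entries grouped by role, with 95% limma intervals, red points for adjusted p under 0.05 and open diamonds for the fit without lesion-free replicate 4. ACTA1, CNN1 and DES are the red points, and TNS1 moves from 0.17 to -0.95.

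Of the 5 thin-filament regulators 1 fell, CNN1, 4 were below 0 and 4 were lower without overlap. Over all genes the shares were 0.0771%, 50.1% and 8.97%. The median of the 5 was -0.93. Their share of counts was 3.1% ± 0.569 in lesion and 4.72% ± 0.237 in lesion-free pools. CNN1, calponin, which binds actin and slows myosin, was at 2887, 3888 and 4203 CPM in lesion and 9323, 8841 and 9671 CPM in lesion-free pools. The highest lesion pool was under 0.5 of the lowest lesion-free pool. It was 2.57-fold lower (-1.36, SE 0.28, limma adjusted p = 0.0251). The call was lost without lesion replicate 1 (limma adjusted p = 0.0895) or lesion-free replicate 5 (0.185) or 6 (0.0978), and also with limma-trend (0.0531).

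TAGLN, transgelin or SM22, an actin-bundling protein, was at 8586, 13282 and 14507 CPM in lesion and 29297, 19905 and 19953 CPM in lesion-free pools. The groups did not overlap, and lesion-free replicate 4 was far above the other two (-0.95, SE 0.31, limma adjusted p = 0.246). SMTN, smoothelin, which marks fully contractile cells, was at 1685, 2575 and 2238 CPM against 3635, 4239 and 4338 CPM. Its pools also did not overlap (-0.93, SE 0.28, limma adjusted p = 0.18). TPM2, beta-tropomyosin, ran from 4843 to 8202 CPM in lesion and from 8442 to 12598 CPM in lesion-free pools (-0.59, limma adjusted p = 0.522), with no overlap.

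CALD1, caldesmon, differed in direction from those genes. Its levels were 4690, 5059 and 4519 CPM in lesion pools and 3157, 4230 and 5012 CPM in lesion-free pools. The groups overlapped, and the log2 difference was 0.23 (SE 0.28, limma adjusted p = 0.81), or 0.04 without lesion-free replicate 4. TPM1, alpha-tropomyosin, matched by identifier only, ran from 1771 to 2833 CPM in lesion and from 2049 to 2607 CPM in lesion-free pools (-0.08, limma adjusted p = 0.943).

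The 4 myosin regulators held no called gene and none whose groups were separate, with a median of 0.07. Over all genes 0.0771% fell, and 8.97% were lower and 10.5% higher without overlap, so 0 of 4 is near these shares. Without lesion-free replicate 4 the median was -0.19. Their share of counts was 0.324% ± 0.0777 in lesion and 0.298% ± 0.115 in lesion-free pools. MYLK, the kinase itself, was at 474, 965 and 648 CPM in lesion and 380, 862 and 993 CPM in lesion-free pools. Both groups spanned about the same range, and its log2 difference of -0.05 (95% interval -0.86 to 0.76, limma adjusted p = 0.98) became 0.13 with plain library totals.

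PPP1R12A, the targeting subunit of the myosin phosphatase, was at 189, 125 and 139 CPM in lesion and 97.1, 130 and 192 CPM in lesion-free pools (0.14, SE 0.30, limma adjusted p = 0.898). PPP1R12B, its relative, was barely detected, at 18, 55 and 41 counts in lesion and 8, 37 and 23 counts in lesion-free pools. Its difference of 1.00 had an interval of -0.97 to 2.97 (limma adjusted p = 0.73), so neither direction could be resolved at this depth. RGS5, which dampens G-protein signals that raise calcium, ran from 1682 to 2772 CPM in lesion and from 1479 to 2927 CPM in lesion-free pools (0.00, limma adjusted p = 0.998).

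Of the 10 intermediate filament and dense body genes 1 fell, DES, 9 were below 0 and 4 were lower without overlap. Over all genes the shares were 0.0771%, 50.1% and 8.97%. The median of the 10 was -0.67. Their share of counts was 1.73% ± 0.442 in lesion and 3.3% ± 0.251 in lesion-free pools. DES, desmin, the filament that links dense bodies, was at 3235, 5687 and 5475 CPM in lesion and 11779, 12218 and 11341 CPM in lesion-free pools. The lesion-free pools lay close together, and all lesion pools were below them. It was 2.55-fold lower (-1.35, SE 0.30, limma adjusted p = 0.0468). The call was lost without lesion replicate 1 (limma adjusted p = 0.146) or lesion-free replicate 5 (0.278) or 6 (0.106), and also with limma-trend (0.0861) or without robust moderation (0.0514).

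CSRP1, a LIM protein of the actin cytoskeleton, was at 3159, 6148 and 8144 CPM in lesion and 18341, 13683 and 13134 CPM in lesion-free pools. The groups did not overlap, and the log2 difference of -1.47 (SE 0.35) just missed the threshold (limma adjusted p = 0.0688). It passed with plain library totals, without the low-count filter, with sample quality weights and without lesion replicate 3. It did not pass without lesion replicate 1 (-1.07, limma adjusted p = 0.206) or lesion-free replicate 4 (-1.31, 0.129). The highest limma adjusted p with a pool left out was 0.232. ACTN1, an actin cross-linker, ran from 909 to 1441 CPM in lesion and from 1782 to 2183 CPM in lesion-free pools (-0.77, limma adjusted p = 0.296), without overlap.

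FLNC, filamin C, another cross-linker, was singled out after its values were seen. It was at 558, 771 and 770 CPM in lesion and 654, 1737 and 1720 CPM in lesion-free pools. Only lesion-free replicate 4 overlapped the lesion pools, and the difference was -0.86 (limma adjusted p = 0.41) with it and -1.33 (limma adjusted p = 0.0189) without it. SYNPO2, synaptopodin-2 of the dense body, behaved alike in that pool, at 531 CPM against 2072 and 2130 CPM in the other lesion-free pools and 884 to 1279 CPM in lesion. Its difference was -0.29 (limma adjusted p = 0.861), or -0.95 (0.14) without that pool.

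SYNM, synemin, a partner of desmin, was at 935, 1628 and 1084 CPM in lesion and 337, 1334 and 1333 CPM in lesion-free pools. Its difference of 0.48 (SE 0.49, limma adjusted p = 0.761) became -0.18 without lesion-free replicate 4. The others in this class did not pass either. PDLIM3 was lower without overlap (55.3 to 89.9 CPM against 97.2 to 124 CPM, -0.68, limma adjusted p = 0.394). ACTN4 differed by -0.54 (limma adjusted p = 0.587), LDB3 by -0.67 (0.716) and PDLIM5 by -0.02 (0.991, and 0.15 on the log2 scale with plain library totals), each with overlapping groups.

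Among the 6 adhesion and membrane genes 0 were called, 4 were below 0 and 1 was lower without overlap. Over all genes 50.1% were below 0 and 8.97% were lower without overlap. The median of the 6 was -0.34. Their share of counts was 0.823% ± 0.0844 in lesion and 0.94% ± 0.268 in lesion-free pools. ILK, integrin-linked kinase, was at 427, 502 and 567 CPM in lesion and 964, 644 and 790 CPM in lesion-free pools. It is the gene whose groups did not overlap (-0.67, SE 0.27, limma adjusted p = 0.376). TLN1, talin, which joins integrins to actin, was at 3100, 3813 and 3555 CPM against 3692, 4899 and 5297 CPM (-0.40, SE 0.28, limma adjusted p = 0.634).

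TNS1, tensin-1, an adhesion protein that binds actin, was at 480, 809 and 912 CPM in lesion and 130, 1414 and 1318 CPM in lesion-free pools. Lesion-free replicate 4 was the lowest of all 6 pools, and the other two lesion-free pools were the highest. The difference was 0.17 (SE 1.01, limma adjusted p = 0.969) with that pool and -0.95 (limma adjusted p = 0.213) without it. VCL (-0.34, limma adjusted p = 0.702), CAV1 (-0.35, 0.661) and ITGA8 (0.09, 0.934) overlapped. ITGA8, an integrin chain of vascular smooth muscle, ranged only from 1253 to 1291 CPM in lesion pools and from 890 to 1523 CPM in lesion-free pools.

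The deposited isoform counts were tested in the same way. Of 40 isoforms tied to the 31 entries 39 were tested, and 0 were called lower or higher (limma), against 0.0316% of 12666 isoforms called lower. At an unadjusted p under 0.05, 14 were lower and 0 higher, beside 3.47% and 5.33% of all isoforms. For 26 entries there was 1 isoform, with counts equal to those of the gene. All of the 14 but MYL6-201 were such isoforms, so they repeat the gene result. CALD1, MYL6, TNS1 and VCL could be tested for a change in isoform use, and none was called (limma diffSplice, adjusted p = 0.969 for each). Over all 706 genes so tested the count was also 0, with 35 at an unadjusted p under 0.05 and 0 of these in the set. CALD1-201 held 70.7%, 83.2% and 73.2% of the CALD1 counts in lesion pools and 75.9%, 78.5% and 80.2% in lesion-free pools. MYL6-201 held 57.6%, 31.3% and 54.5% against 50.9%, 53.6% and 55.5%, with lesion replicate 2 low. In that pool the second MYL6 entry held 12354 counts, 10052 of them in MYL6-203, which had 0 in the other pools. Whether shared reads lowered the MYL6-201 share was not tested.

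Ratios of a muscle-type gene to a related gene within a pool do not depend on library scaling. Of 23 listed pairs 13 could be formed. In 6 the log2 ratio was lower in every lesion pool than in every lesion-free pool, in 1 it was higher, and in 6 the groups overlapped. CNN1 enters more than 1 of the 6 low pairs, and a ratio reflects both of its genes. Among the related genes of those pairs, TAGLN2 (0.30) and TPM4 (0.47) were above 0. CNN2 (-0.59), CNN3 (-0.17), VIM (-0.48) and ACTA2 (-0.76) were below 0. With 3 pools against 3 the exact two-sided permutation test cannot go below 0.1, and adjustment over the 13 pairs gave 0.186 for the 7 separated pairs, so none passed.

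TAGLN to TAGLN2, its relative in many cell types, had log2 ratios of 5.44, 5.99 and 5.62 in lesion and 7.14, 6.81 and 6.82 in lesion-free pools, a difference of -1.24. CNN1 to CNN3, the widely expressed calponin, stood at 4.59, 4.86 and 4.55 against 5.97, 5.60 and 5.99, a difference of -1.18. Both were separate in all pools. ITGA8 to ITGA5, the fibronectin receptor chain, went the other way, at 1.16, 1.16 and 1.95 in lesion and -0.11, 0.48 and 0.44 in lesion-free pools, a difference of 1.15. In that pair ITGA5 was itself lower without overlap (-1.06, limma adjusted p = 0.126), while the ITGA8 groups overlapped (0.09). TNS1 to TNS3 overlapped, at 4.99, 4.32 and 3.86 against 3.87, 7.45 and 5.37, and the difference of -1.17 became -2.02 without lesion-free replicate 4. DES to VIM, vimentin, the filament of mesenchymal cells, was tight within groups, at -1.16, -1.13 and -1.18 in lesion and -0.32, -0.32 and -0.24 in lesion-free pools. The ACTA1 to ACTA2 ratio differed by -0.97, TPM2 to TPM4 by -1.06 and CNN1 to CNN2 by -0.76, each without overlap.

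**Figure D4:**
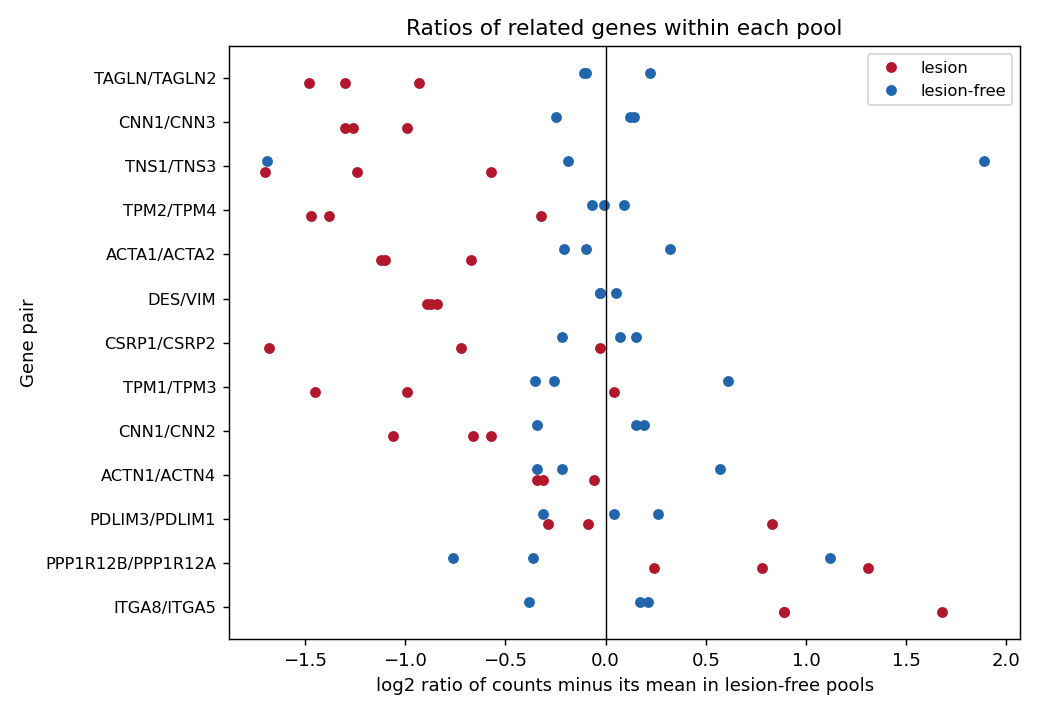
Log2 ratio of counts of related genes within each pool, minus its mean over the lesion-free pools, for 13 pairs, with lesion pools in red and lesion-free pools in blue. TAGLN to TAGLN2 and CNN1 to CNN3 are separate on the low side, and ITGA8 to ITGA5 on the high side.

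A wider list of other contractile and adhesion genes was read in the same way. Of 105 symbols 81 had an entry, and 81 of the resulting 85 entries were tested. None was called in either direction (limma), with 21 lower and 6 higher at an unadjusted p under 0.05, beside 4.15% and 6.49% of all genes. With all pools 41 were below 0 and 40 above, with a median of -0.01, and without lesion-free replicate 4 the counts were 56 and 25, with a median of -0.26. In 25 entries the lesion pools were lower without overlap and in 6 higher, beside 8.97% and 10.5% of all genes. HSPB1, a small heat-shock protein, is carried by 2 entries with identical counts in all pools, and with it taken once the lower counts were 24 without overlap and 20 at the unadjusted p. The genes of smallest p, named after their values were seen, were LIMS2, a partner of integrin-linked kinase (-1.16, limma adjusted p = 0.0716), and CRYAB, a small heat-shock protein that chaperones desmin (-1.19, 0.0762). Next by p were ZYX, zyxin of focal adhesions, matched by identifier (-1.44, 0.0923), HSPB1 (-1.33, 0.0931), HSPB8 (-0.96, 0.101) and ITGA3 (-1.09, 0.12). All of these were lower without overlap. SRF, the transcription factor that drives many contractile genes, came further down by p and is named outside that order. It was also lower without overlap (-0.83, limma adjusted p = 0.186), and a part of SRF in the other differences was not tested.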

How the data were processed

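Total RNA of 6 pools was sequenced. Per the labels' protocols the library kit was a stranded total RNA kit, and the submitters' processing notes name RSEM 1.3.0 and edgeR. No genome build or aligner is named there. The deposited values are gene and isoform counts with digits grouped by commas, which were removed. Because of the commas the columns were recorded as other values and edgeR was not run. The members, lists and tests were chosen with earlier results of these data known.

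The test was limma 3.58.1 in R 4.3.3 (voom weights, robust empirical Bayes, Benjamini-Hochberg over all genes, adjusted p under 0.05). Libraries were scaled by TMM, trimming 30% of M and 5% of A. A gene was tested with at least 1 CPM on plain totals (10 counts at the median depth) in 3 pools and 15 counts summed over pools, which left 11673. This filter, and CPM divided by the scaled counts of tested genes, were set after values were seen, to follow an earlier processing of these data. A filter on TMM-scaled totals left 11643 genes and changed no count of contractile genes called. Named genes were called members, in each role the 2 of smallest p and the largest rise, ACTA2 and TAGLN, and the 4 pairs of largest difference. Further names are given as such or in ranges. Alternatives were other scalings, filters, weights and spread models, and each pool left out. No sequences were used here.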

Additional observations from a re-analysis of the deposited data

How the results depend on the processing

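The number of contractile genes called lower was 3, and became 1 with limma-trend (ACTA1), 2 without robust moderation (ACTA1 and CNN1) and 5 with sample quality weights, and ran from 0 to 4 with each pool left out. Their median log2 difference ran from -0.75 to -0.37 with each pool left out. Over all genes, 9 were lower and 113 higher. These became 17 and 171 without the low-count filter and 40 and 213 with sample quality weights, and ran from 4 to 36 and from 55 to 150 with each pool left out. In the wider list 6 were lower with sample quality weights, and 0 to 6 with each pool left out. Without the filter 2 isoforms of contractile genes were called lower. The cause was not tested. Among settings added after seeing the data, TMM without the members and the filter on scaled totals moved no gene count by over 1.5 times (isoforms were not refitted). CPM over all counts, tried for the summed CPM alone, gave a difference of -64266 against -64484. Leaving out each pool, also added there, gave -69303 to -56013, and 0 members called for isoform use.

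Directions of uncalled genes turned. With plain library totals, which shift the median of all genes by 0.16, MYLK was at 0.13 and PDLIM5 at 0.15. With sample quality weights ITGA8 was at -0.07, RGS5 at -0.27, TNS1 at -0.35 and PPP1R12A at -0.17. RGS5 was at -0.00 with median-of-ratios scaling, without the filter and with limma-trend. With each pool left out the ranges were -0.48 to 0.22 for MYLK, -0.95 to 0.05 for SYNPO2, -0.18 to 0.81 for SYNM, -0.13 to 0.26 for ITGA8, -0.27 to 0.23 for RGS5, -0.24 to 0.14 for PDLIM5, -0.95 to 0.76 for TNS1 and -0.10 to 0.40 for PPP1R12A. PPP1R12B, at 8 to 55 counts a pool, had the fewest counts of the members in total. No paired analysis was possible because the groups came from different animals, WMS FH and WMS normal.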
